A study of Mus musculus with 12 samples.

Results

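Lungs of mice without Nfkb1 were compared with wild-type lungs in the absence of any ozone (O3) exposure, to ask which lung genes differ basally with this NF-κB genotype. The comparison rests on 6 of the 12 arrays of the series, namely all 3 arrays labelled Nfkb1KO-Air and all 3 labelled WT-Air, and the members were taken from the genotype and exposure in the sample labels. Nfkb1-/- mice carried the Nfkb1tm1Bal allele in the germline, so that the gene was missing from every cell type and throughout development. Nfkb1+/+ controls were B6129PF2/J mice, an F2 hybrid stock of mixed background. The Nfkb1-/- mice were purchased as a separate mutant stock, also of mixed background, and are not described as littermates of the controls. In every difference given here, strain background and loss of the gene therefore cannot be told apart. All mice were male, 6 to 8 weeks old, and breathed filtered air in a chamber run in parallel with the 48 h exposure of the other groups to 0.3 ppm O3 (WT-O3 and Nfkb1KO-O3, 3 arrays each). RNA came from the homogenised left lung of 1 mouse per array, so that n is 3 mice per group throughout. In such RNA, fewer cells of a type and less RNA per cell cannot be told apart.

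NF-κB is a family of dimeric transcription factors that inhibitor proteins hold in the cytoplasm until a cytokine or microbial signal releases them. Nfkb1 encodes p105, which is processed to p50, a subunit that binds DNA but lacks a transactivation domain of its own, so that p50 homodimers can occupy DNA sites without driving transcription. Type I interferons signal through their receptor to transcription factors that bind the interferon-stimulated response element in the promoters of antiviral genes.

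Values are log2 signals of Affymetrix probe sets, quantile normalised over the 12 arrays, and a difference is always Nfkb1KO-Air minus WT-Air. Each gene was tested with limma over all 12 arrays, and a gene is said to be called when its Benjamini-Hochberg adjusted p was under 0.05. A log2 signal of 4.37 marks the 20th percentile of an array, below which probe sets were treated as dim. The annotation used here names no probe set for Nfkb1, so that the level of the targeted gene was not analysed here and the genotype labels could not be checked against it. Levels of 6 defining lung genes (Sftpc, Sftpa1, Scgb1a1, Ager, Cav1 and Cdh5) lay between log2 12.49 and 14.90 in the 6 air arrays. Nfkb1KO-Air replicate 1 stood apart from the other 11 arrays, with a median deposited signal of 180.1 against 99.1 to 121.2 and rank correlations of 0.916 to 0.930 with them. Marker levels of other tissues also differed between arrays. Summed signals of 12 skeletal muscle markers were 6146, 1486 and 39673 in WT-Air replicates 1, 2 and 3 and 1557 to 2377 over the Nfkb1KO-Air arrays, and those of 8 adipose markers were 57908, 8374 and 67772 in WT-Air and between 24748 and 40884 in Nfkb1KO-Air. Those of 11 cardiac muscle markers were 120014, 42001 and 25212 in WT-Air and between 46459 and 81302 in Nfkb1KO-Air. The number of calls and the type I interferon group are therefore also given without WT-Air replicate 3 and Nfkb1KO-Air replicate 1.

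Of 17569 genes tested, 60 were called (0.342%), 45 higher (0.256%) and 15 lower (0.0854%) in Nfkb1-/- lungs. In all 60 the groups did not overlap, and 36 differed at least 2-fold (29 higher and 7 lower). Of all genes, 6.63% had every Nfkb1KO-Air array above and 7.26% every one below the WT-Air arrays. The 60 were chosen by p on these same arrays, so their lack of overlap adds no support. The median difference of all genes was -0.01, and 1986 genes (11.3%) had an unadjusted p under 0.05. With 0.342% of all genes called, a short list with 0 called genes is near this share, and nothing is read from it. Counts of list members at an unadjusted p under 0.05 are to be read against the 11.3%. The number of calls depended on single mice. When WT-Air replicate 1 was left out, 93 genes were called, and when WT-Air replicate 3 was left out, 36. Dropping Nfkb1KO-Air replicates 1, 2 or 3 gave 32, 30 and 15 calls. With both WT-Air replicate 3 and Nfkb1KO-Air replicate 1 out, 30 were called, of which 14 higher and 3 lower genes were among the 60. Of the 60, 26 were still called in at most 10 of the 21 alternative analyses. Among the 21 is the methods' t-test at an unadjusted p under 0.05, which kept all 60. Every count of alternatives given here includes it. The plot of all genes shows where the called genes lie.

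**Figure D1:**
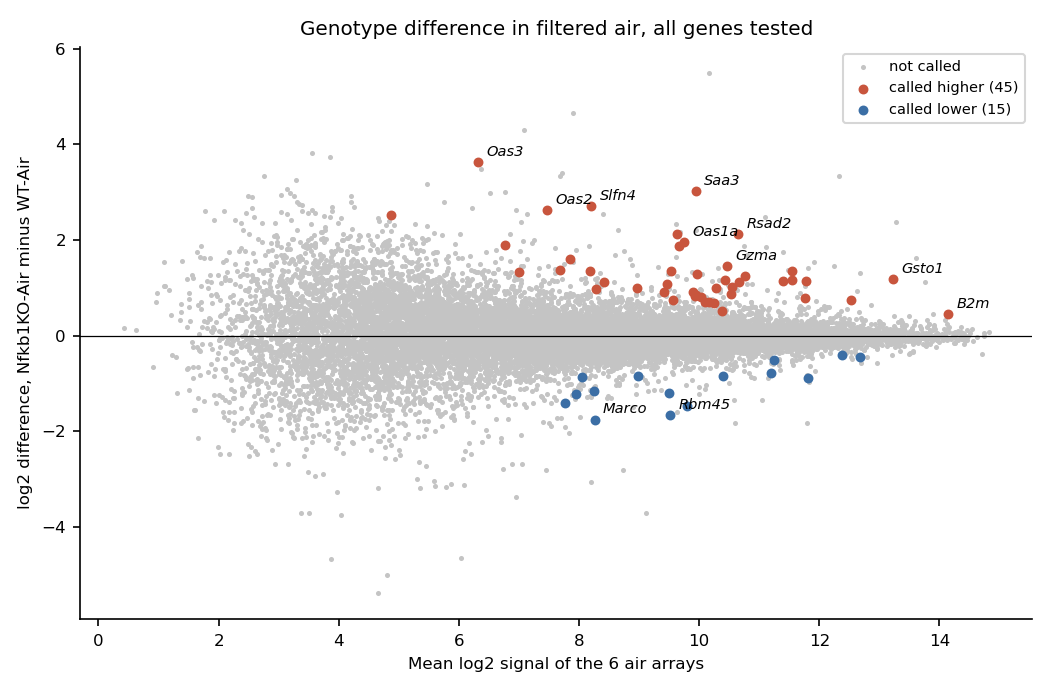
Genotype difference in filtered air (log2, Nfkb1KO-Air minus WT-Air, y axis) against the mean log2 signal of the 6 air arrays (x axis), 1 point per gene. Red points are the 45 genes called higher and blue points the 15 called lower by limma; many dim genes at the left differ as much without being called.

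Promoter sequence is given first, since an interferon-responsive element was found in part of the genes that were higher. RefSeq promoter windows (GRCm38.p6, from 250 bases before to 50 bases after the transcription start) were at hand for 35 of the 45 genes called higher, 9 of the 15 called lower and 13896 of all genes tested. The core of the interferon-stimulated response element (GAAA, any 2 bases, then GAAA) on either strand was found in 14 of the 35 (40.0%), in 0 of the 9, and in 507 of the 13896 (3.65%). It was in 7 of the 10 called type I interferon group genes with a window (70.0%) and in 5 of the 20 genes called higher that belong to no interferon list (25.0%). Of all measured members of that group with a window, called or not, 14 of 34 had it (41.2%). In 3.44% of all 32851 windows of the table the same core was found. The κB consensus was in 2 of the 35 genes called higher (5.71%), 1 of the 9 called lower (11.1%) and 8.18% of all genes tested. The gamma-activated site TTCNNNGAA was in 4 of the 35 (11.4%) and in 8.55% of all genes tested. Of the 34 measured members of the type I interferon group with a window, 9 had this site (26.5%), a share above that of all genes. It was in 2 of the 10 called members and in 2 of the 20 genes called higher that belong to no interferon list. The κB consensus was in 4 of the 34 (11.8%). These matches are a description of letters in a window and do not show that a factor was bound.

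The stretches of 70 bases shown next hold the element in genes whose values follow. They are on the strand of the gene, 5′ to 3′, and the capitals mark every match to the interferon-stimulated response element core that lies wholly in the stretch, where matches may overlap (a match on the opposite strand reads as its reverse complement). In B2m, the capitals after the lower-case gap mark the κB consensus instead. Oas1a lies at chr5:120907506-120907575 on the minus strand, Oas3 at chr5:120777695-120777764 (minus), Ifit1 at chr19:34640755-34640824 (plus), Ifit3 at chr19:34583343-34583412 (plus), Rsad2 at chr12:26456533-26456602 (minus), Bst2 at chr8:71537563-71537632 (minus), Trim30a at chr7:104465190-104465259 (minus), Gbp3 at chr3:142559969-142560038 (plus), Irgm1 at chr11:48871411-48871480 (minus), B2m at chr2:122147518-122147587 (plus), Ctss at chr3:95526735-95526804 (plus) and Saa3 at chr7:46715762-46715831 (minus).
Oas1a: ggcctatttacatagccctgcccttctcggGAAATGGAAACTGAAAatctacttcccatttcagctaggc
Oas3: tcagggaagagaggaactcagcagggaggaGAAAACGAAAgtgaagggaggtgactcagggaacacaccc
Ifit1: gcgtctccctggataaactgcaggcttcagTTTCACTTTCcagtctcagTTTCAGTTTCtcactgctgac
Ifit3: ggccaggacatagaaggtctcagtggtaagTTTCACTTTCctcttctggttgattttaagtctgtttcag
Rsad2: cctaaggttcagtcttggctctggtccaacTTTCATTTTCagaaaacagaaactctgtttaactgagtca
Bst2: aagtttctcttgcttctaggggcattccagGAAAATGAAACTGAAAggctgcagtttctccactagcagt
Trim30a: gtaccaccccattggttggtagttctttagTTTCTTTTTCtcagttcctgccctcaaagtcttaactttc
Gbp3: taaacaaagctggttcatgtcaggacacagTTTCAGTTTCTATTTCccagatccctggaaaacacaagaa
Irgm1: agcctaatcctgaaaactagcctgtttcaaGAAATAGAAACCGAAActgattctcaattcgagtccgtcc
B2m: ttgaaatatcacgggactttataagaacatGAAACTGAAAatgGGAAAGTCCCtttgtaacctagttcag
Ctss: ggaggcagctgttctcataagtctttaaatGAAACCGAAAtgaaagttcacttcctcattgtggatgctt
Saa3: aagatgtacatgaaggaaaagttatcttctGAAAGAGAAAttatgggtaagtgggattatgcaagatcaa

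The type I interferon group was basally higher in Nfkb1-/- lungs. The group joins the oligoadenylate synthetase family, antiviral effectors and the ISG15 conjugation system. Of its 44 measured members, 12 were called higher and 0 lower, against 0.256% of all genes called higher. In 32 of the 44 all 3 Nfkb1KO-Air arrays lay above all 3 WT-Air arrays, which was the case for 6.63% of all genes, and the median difference was 0.72 against -0.01. The study itself had singled out 5 of the 44 on these arrays, so that these are not independent of it. The lists as a whole were also chosen with earlier results of these data known. The counts and the median therefore describe the group and are not independent support. Summed signals of the group lay between 53196 and 56455 in WT-Air and between 82017 and 85300 in Nfkb1KO-Air.

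Upstream of the antiviral genes, 2 of 11 measured genes of type I interferon signalling were called higher, against 0.256% of all genes. Irf7, a transcription factor of interferon gene induction, had log2 signals of 8.70, 8.60 and 8.88 in WT-Air and of 10.66, 10.39 and 10.74 in Nfkb1KO-Air. The groups were far apart and each was tight, with a 3.65-fold difference (log2 1.87 ± 0.17 SE, limma adjusted p = 0.000373). Irf9, a transcription factor that binds the interferon-stimulated response element, had 9.21, 9.72 and 9.61 in WT-Air and 10.54, 10.18 and 10.37 in Nfkb1KO-Air (1.80-fold, log2 0.85 ± 0.14, limma adjusted p = 0.0213). The other 9 genes, which encode receptor chains, their kinases, STAT2 and further interferon regulatory factors, overlapped between groups and differed by -0.16 to 0.33. Among 7 measured interferon ligand genes, 0 were called by limma and 1 had an unadjusted p under 0.05. Their signals were low, with both group means at or below log2 4.37 in 3 of the 7. Ifnb1, interferon beta, gave 4.04, 5.42 and 5.40 in WT-Air and 4.77, 5.18 and 2.68 in Nfkb1KO-Air, with groups that overlap near the dim limit.

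Oligoadenylate synthetases make short oligoadenylates that switch on the antiviral ribonuclease RNase L. Of 10 measured family members, 5 were called higher, against 0.256% of all genes. Oas3 had log2 signals of 4.50, 4.63 and 4.40 in WT-Air and of 8.995, 7.565 and 7.828 in Nfkb1KO-Air. Thus Oas3 was only just above the dim limit in every WT lung and well measured in every Nfkb1-/- lung, a 12.3-fold difference (log2 3.62 ± 0.59, limma adjusted p = 0.0213). Oas2 had 6.31, 6.44 and 5.72 in WT-Air and 9.11, 8.55 and 8.68 in Nfkb1KO-Air, a 6.18-fold difference. Oas1a had the smallest p of all genes, with 8.95, 8.55 and 8.80 in WT-Air and 10.87, 10.59 and 10.68 in Nfkb1KO-Air (log2 1.95 ± 0.14, limma adjusted p = 9.53e-05). The synthetase-like genes Oasl1 and Oasl2 were 2.58-fold and 4.33-fold higher. Oasl2 was lowest in WT-Air replicate 3 (7.81 against 8.89 and 9.02), while all Nfkb1KO-Air arrays lay between 10.56 and 10.80.

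Antiviral effectors act on viral RNA, budding or protein turnover, and 6 of 30 measured were called higher, against 0.256% of all genes. Rsad2, which encodes viperin, had log2 signals of 9.74, 9.72 and 9.31 in WT-Air and of 11.94, 11.14 and 12.07 in Nfkb1KO-Air (4.36-fold, log2 2.12 ± 0.38, limma adjusted p = 0.0394). It was not called when any single air array but Nfkb1KO-Air replicate 2 was left out (adjusted p of 0.061 to 0.147). Ifit1, which binds viral RNA, had 9.40, 9.32 and 9.22 in WT-Air and 10.47, 10.70 and 10.62 in Nfkb1KO-Air, a 2.44-fold difference. Its relative Ifit3 was 2.16-fold higher, the tetherin gene Bst2 1.83-fold, the apoptosis-related Xaf1 2.54-fold and the tripartite motif gene Trim30a 1.74-fold. For Xaf1, 1 of 2 probe sets went this way. Trim30a was still called in 7 of 21 alternative analyses and Xaf1 in 11. Of the ISG15 system, which attaches a ubiquitin-like tag to proteins, Usp18, the protease that removes the tag, was called among 4 measured. Usp18 had 9.89, 9.94 and 10.27 in WT-Air and 11.01, 11.03 and 11.13 in Nfkb1KO-Air (2.03-fold, log2 1.02 ± 0.12, limma adjusted p = 0.00283). The plot of interferon-pathway genes by array shows the gap between the groups for each of these.

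**Figure D2:**
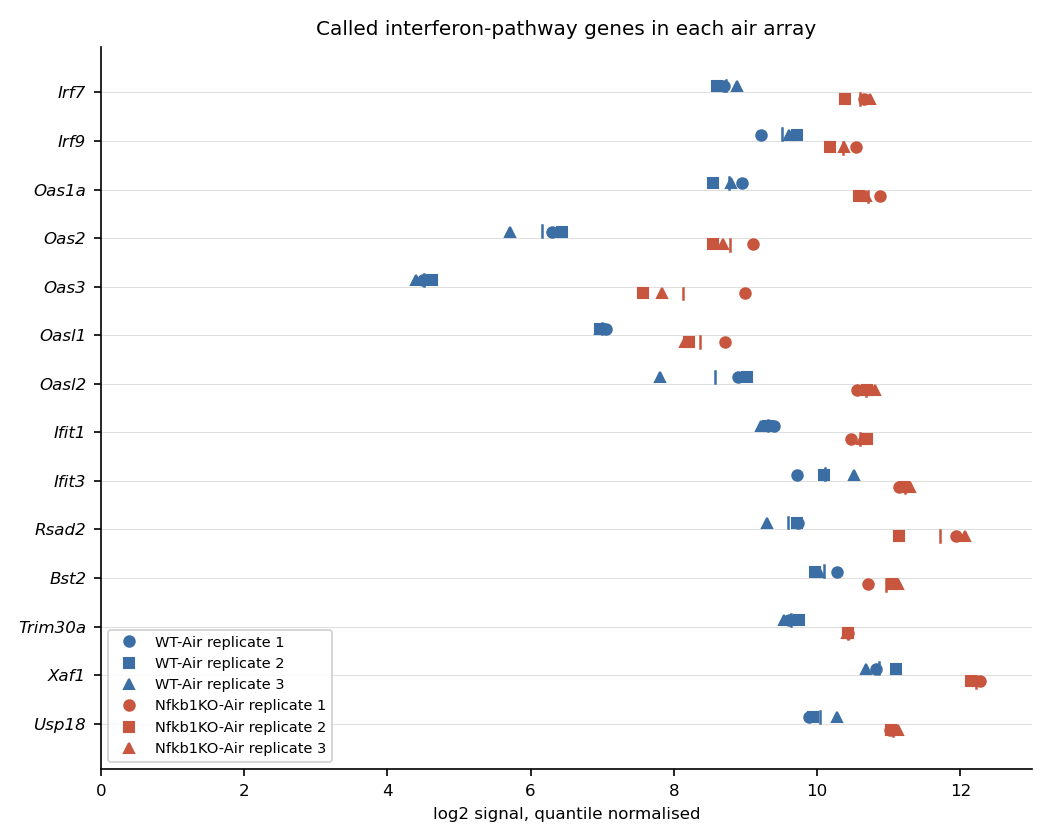
Log2 signals (x axis) of the 14 called genes of type I interferon signalling and the type I interferon group in each of the 6 air arrays. Blue symbols are WT-Air and red symbols Nfkb1KO-Air, symbol shape gives the replicate, short bars are group means, and no gene has overlapping groups.

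Of the 32 members of the group that were not called, 20 also had every Nfkb1KO-Air array above every WT-Air array and 5 had a negative difference. Ifi44l gave 2.28, 6.19 and 6.34 in WT-Air and 9.52, 8.90 and 9.28 in Nfkb1KO-Air, a difference of 4.29 ± 1.19 that was not called (limma adjusted p = 0.19), with 1 dim WT-Air array. Trim12a went the other way without a call. It gave 8.95, 9.27 and 3.72 in WT-Air and 3.10, 0.10 and 3.73 in Nfkb1KO-Air, so that WT-Air replicate 3 was as low as the Nfkb1-/- lungs. Ifi202b, of the interferon-inducible nucleic acid sensors, gave 7.42, 6.51 and 3.81 in WT-Air and 0.77, 3.15 and 2.54 in Nfkb1KO-Air, again with replicate 3 the lowest WT array.

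The type I interferon group had 9, 9 and 7 calls when WT-Air replicates 1, 2 or 3 were dropped and 7, 6 and 3 when Nfkb1KO-Air replicates 1, 2 or 3 were, but the median difference stayed between 0.66 and 0.79 in those fits. Without WT-Air replicate 3 and Nfkb1KO-Air replicate 1 together, 7 of 44 were called and the median was 0.79. With arrays centred on their medians, 3 were called. The median of the group was then 0.48 and that of all genes moved to -0.20, a shift of all genes that applies to every list described here.

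Other interferon-inducible families had few called genes, to be read against 0.256% of all genes called higher. Of 10 guanylate-binding proteins and immunity-related GTPases, which attack the vacuoles of intracellular microbes, 2 were called higher and 0 lower, with a median difference of 0.78. Gbp3 had log2 signals of 9.70, 9.99 and 9.88 in WT-Air and of 11.24, 10.63 and 11.16 in Nfkb1KO-Air (2.23-fold, log2 1.15 ± 0.20, limma adjusted p = 0.0326). Irgm1 had 9.55, 9.50 and 9.31 in WT-Air and 10.37, 10.30 and 10.39 in Nfkb1KO-Air, a 1.87-fold difference. Gbp3 was still called in 10 of 21 alternative analyses and Irgm1 in 16. Igtp, with groups that did not overlap, was not called (1.08 ± 0.22, adjusted p = 0.0651). Of 8 Schlafen genes only Slfn4, which is expressed in monocytes and macrophages, was called. It had 7.30, 6.10 and 7.15 in WT-Air and 9.51, 9.54 and 9.62 in Nfkb1KO-Air (6.53-fold, limma adjusted p = 0.00193), with the 3 Nfkb1-/- lungs almost equal. Nucleic acid sensors, the proteins that detect viral RNA and cytosolic DNA, had 0 of 17 called by limma, 9 with an unadjusted p under 0.05, and a median of 0.50. Of these, Ifih1, the RNA sensor MDA5, came nearest with 0.50 ± 0.11 (adjusted p = 0.0951).

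In antigen presentation, 1 of 15 genes of MHC class I processing was called higher, B2m, the light chain of class I molecules. Of 9 genes of MHC class II presentation 1 was, Ctss, the cathepsin that processes the invariant chain. Over all genes the share called higher was 0.256%. B2m had 13.93, 13.90 and 13.94 in WT-Air and 14.46, 14.28 and 14.38 in Nfkb1KO-Air. This small step (1.37-fold, log2 0.45 ± 0.08, limma adjusted p = 0.046) was larger than the spread in either group, yet the call was lost in 18 of 21 alternative analyses. Ctss was 1.68-fold higher and lost its call in 16 of 21. The list medians were 0.11 and 0.03, near that of all genes, and their signs turned with the scaling of the arrays. Rtp4 (2.36-fold), Lgals3bp (2.21-fold), Plac8 (2.22-fold) and Ifit1bl1 (1.98-fold), which belong to none of the lists, were called higher too. Rtp4, a chaperone of membrane receptors, had 10.33, 10.21 and 9.87 in WT-Air and 11.51, 11.27 and 11.35 in Nfkb1KO-Air (limma adjusted p = 0.00193).

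No gene of the NF-κB system was called, which for a short list is near the 0.342% of all genes called. Of 17 measured subunits, inhibitors and kinases, 0 were called by limma and 7 had an unadjusted p under 0.05 (11.3% of all genes). Nfkb2, the p100/p52 relative of Nfkb1, gave 8.78, 8.59 and 8.89 in WT-Air and 6.26, 8.29 and 8.32 in Nfkb1KO-Air, all lower but with replicate 1 far from the other 2 (-1.13 ± 0.41, adjusted p = 0.323). Nfkbie, which encodes the inhibitor IκBε, gave 8.18, 8.56 and 8.99 in WT-Air and 6.93, 7.83 and 7.87 in Nfkb1KO-Air (-1.03 ± 0.28, adjusted p = 0.169). Relb (-0.46 ± 0.16), Rel (-0.42 ± 0.33) and the inhibitor gene Nfkbia (-0.22 ± 0.10) also had all 3 Nfkb1KO-Air arrays below WT-Air without being called, which makes 5 of the 17 genes, against 7.26% of all genes.

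Rela, the main transactivating subunit, differed by -0.02 ± 0.08, with signals of 11.58, 11.69 and 11.61 in WT-Air and 11.78, 11.52 and 11.51 in Nfkb1KO-Air. The atypical inhibitor gene Nfkbiz (0.50 ± 0.16) and the deubiquitinase gene Tnfaip3 (0.31 ± 0.13) lay above WT-Air in all 3 arrays, again without a call. For Tnfaip3 the sign turned with the mean of its 2 probe sets. With Rela, 10 of the 17 genes overlapped between groups, and their differences ran from -0.06 to 0.69. Of 25 canonical NF-κB targets, mostly cytokine, chemokine and adhesion genes, 0 were called by limma (0.342% of all genes). At an unadjusted p under 0.05 there were 6, against 11.3% of all genes. The median of the 25 was 0.07 against -0.01 for all genes, and its sign turned when arrays were centred on their medians. Il6 gave 3.03, 4.11 and 4.21 in WT-Air, all dim, and 4.85, 5.34 and 5.48 in Nfkb1KO-Air, and was not called (limma adjusted p = 0.15).

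**Figure D3:**
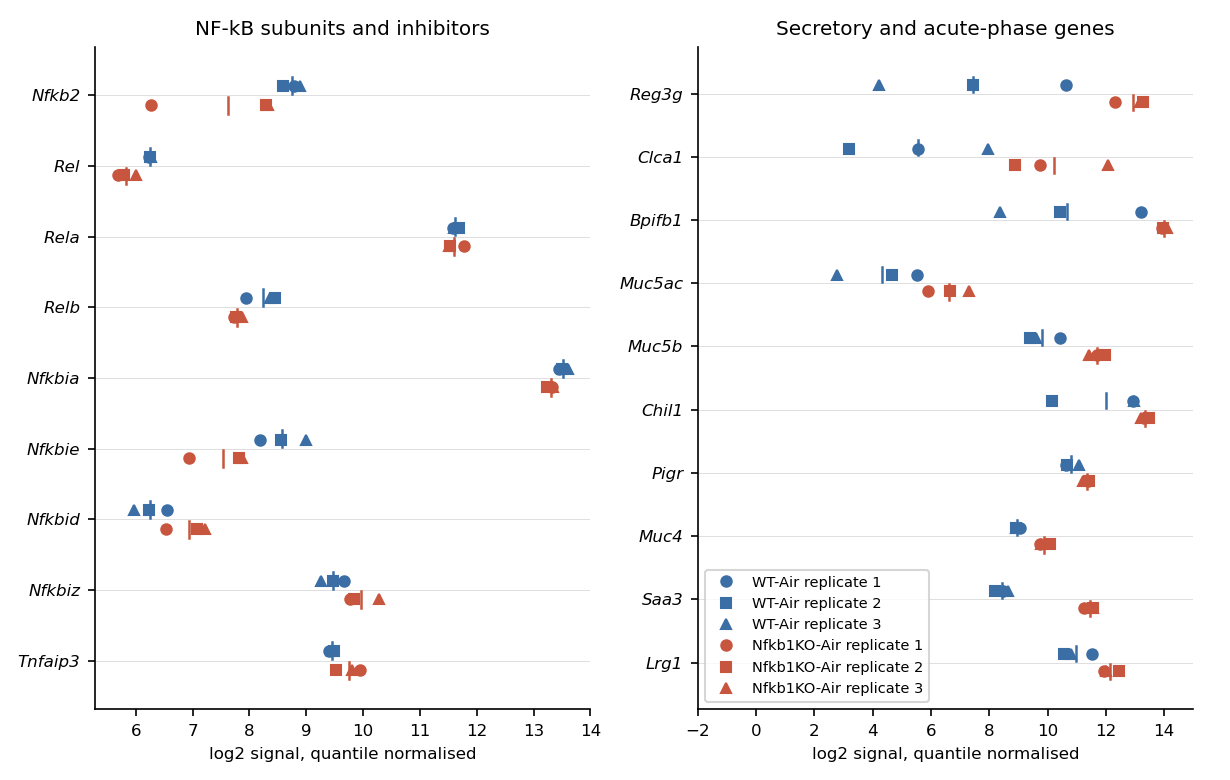
Log2 signals (x axes) in each of the 6 air arrays of 9 NF-kB subunits and inhibitors (left) and of 10 secretory and acute-phase genes (right). Blue symbols are WT-Air, red symbols Nfkb1KO-Air, symbol shape gives the replicate and short bars are group means; Saa3, Lrg1 and Muc4 were called, whereas Reg3g spread from 4.21 to 10.63 over the WT-Air arrays and was not.

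Acute-phase proteins, which rise in blood and at epithelia during inflammation, had 2 of 17 genes called higher. This and the other counts of calls given next are to be read against 0.256% of all genes. Saa3, serum amyloid A3, had log2 signals of 8.49, 8.19 and 8.63 in WT-Air and of 11.26, 11.56 and 11.55 in Nfkb1KO-Air. Both groups were tight and far apart, and Saa3 was 8.12-fold higher (log2 3.02 ± 0.26, limma adjusted p = 0.000373). Lrg1, leucine-rich alpha-2-glycoprotein, had 11.51, 10.57 and 10.81 in WT-Air and 11.93, 12.45 and 12.00 in Nfkb1KO-Air (2.24-fold, limma adjusted p = 0.0326). Cfb, complement factor B of the alternative pathway, was 2.11-fold higher (9.06, 8.76 and 8.95 in WT-Air and 10.19, 9.83 and 9.98 in Nfkb1KO-Air) and was the 1 called gene of 11 complement genes, whose median was -0.23. The neutrophil alarmin S100a8 was 2.00-fold higher, as 1 of 11 neutrophil markers (median 0.88). Summed signals of the neutrophil markers overlapped, at 11831, 4281 and 5293 in WT-Air and between 9825 and 13784 in Nfkb1KO-Air.

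Mucosal lectins and other airway defence genes had the highest median of the lists not chosen by the study apart from the synthetases, 1.14 over 18 genes, with 0 called by limma and 11 at an unadjusted p under 0.05. The WT lungs differed widely among themselves. Reg3g, an antibacterial lectin, gave 10.63, 7.44 and 4.21 in WT-Air and 12.30, 13.27 and 13.18 in Nfkb1KO-Air (5.49 ± 1.78, adjusted p = 0.261). Clca1, a secreted protein of mucous cells, gave 5.55, 3.19 and 7.96 in WT-Air and 9.74, 8.89 and 12.06 in Nfkb1KO-Air (4.66 ± 1.13, adjusted p = 0.131).

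The gel-forming mucin Muc5b gave 10.43, 9.41 and 9.59 in WT-Air and 11.69, 11.97 and 11.42 in Nfkb1KO-Air (1.88 ± 0.59, adjusted p = 0.246), and Muc5ac, the other, gave 5.53, 4.65 and 2.78 against 5.90, 6.65 and 7.30. In 8 of the 18 genes every Nfkb1KO-Air array lay above every WT-Air array, against 6.63% of all genes. The list median was 0.71 without WT-Air replicate 2, and 1 gene was called without WT-Air replicate 3. Muc4, a membrane mucin outside this list, was called 1.89-fold higher, with 9.05, 8.90 and 8.91 in WT-Air and 9.74, 10.10 and 9.77 in Nfkb1KO-Air. Summed signals of ciliated cell markers (between 19717 and 23867 in WT-Air and between 22621 and 31230 in Nfkb1KO-Air) and of club cell markers (between 124180 and 141685, and between 133645 and 146885) overlapped between groups.

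Among markers of resident and recruited cells, those of NK and cytotoxic lymphocytes had the most genes with Nfkb1KO-Air above WT-Air. Of 16 measured, 2 were called higher (0.256% of all genes), 13 had non-overlapping groups with Nfkb1KO-Air above (6.63% of all genes), and the median was 0.86. Gzma, granzyme A, had 9.66, 9.49 and 10.04 in WT-Air and 10.92, 11.16 and 11.48 in Nfkb1KO-Air (2.74-fold, log2 1.45 ± 0.22, limma adjusted p = 0.015). Gzmb, granzyme B, had 7.64, 7.40 and 7.49 in WT-Air and 8.43, 8.88 and 9.29 in Nfkb1KO-Air, a 2.56-fold difference. Without Nfkb1KO-Air replicate 2 or without replicate 3 neither was called (limma adjusted p of 0.0519 to 0.0705), and Gzmb was not called without WT-Air replicate 2 or 3 either. The receptor gene Klrk1 gave 6.46, 6.47 and 6.18 in WT-Air and 7.94, 7.17 and 7.58 in Nfkb1KO-Air and was not called (1.19 ± 0.27, adjusted p = 0.114). Summed signals of the 16 markers were 2356, 2483 and 2952 in WT-Air and 4957, 5209 and 6397 in Nfkb1KO-Air. For T cell markers the median was -0.25, with 0 of 13 called by limma and 2 at an unadjusted p under 0.05, but 0.09 without quantile normalisation.

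Monocyte and interstitial macrophage markers had 1 of 10 called higher, against 0.256% of all genes, and a median of 0.67. The called gene was Ms4a4c, 2.54-fold higher and still called in 7 of 21 alternatives. Summed signals of the 10 did not overlap, at 12382, 8565 and 11875 in WT-Air and between 14568 and 14926 in Nfkb1KO-Air. What part of the interferon, acute-phase or granzyme differences goes with these NK, monocyte and neutrophil marker levels was not tested. Alveolar macrophage markers, apart from Marco, had 0 of 11 called. Summed signals of all 12, with Marco, overlapped (between 23358 and 24459 in WT-Air and between 22081 and 26156 in Nfkb1KO-Air). The median of the 10 alveolar type 1 markers was -0.11, with 0 called by limma and 4 at an unadjusted p under 0.05. The 11 type 2 markers had a median of -0.04. The plot of gene lists sets these groups side by side.

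**Figure D4:**
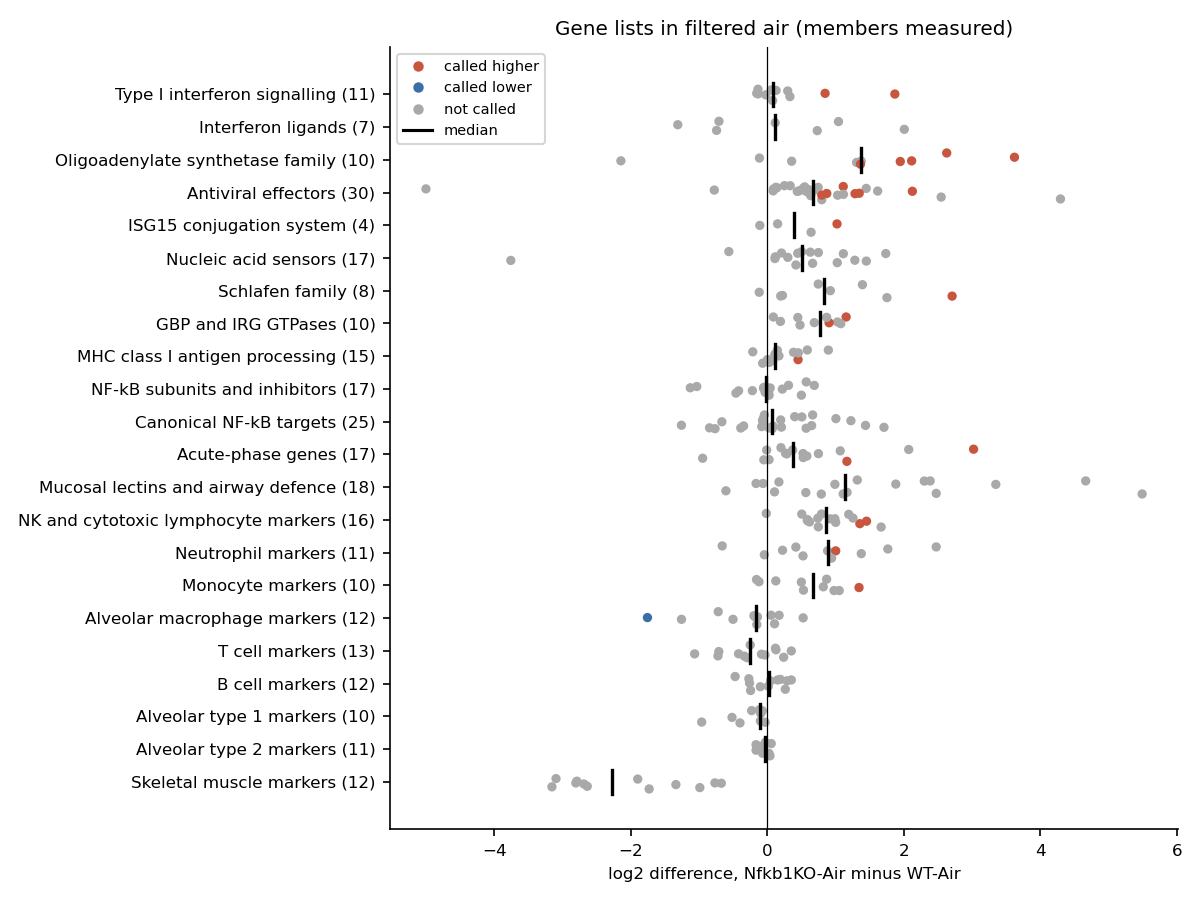
Log2 differences (Nfkb1KO-Air minus WT-Air, x axis) of the measured members of 22 gene lists, with the number measured beside each name. Each point is a gene, coloured red if called higher, blue if called lower and grey if not called, and the black bar is the list median, which is highest for the synthetases (1.37) and lowest for skeletal muscle markers (-2.27).

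Genes lower in Nfkb1-/- lungs were fewer, and 13 of the 15 belonged to no list. Marco, a scavenger receptor with which alveolar macrophages bind bacteria and particles, had log2 signals of 8.67, 9.01 and 9.73 in WT-Air and of 7.32, 7.27 and 7.55 in Nfkb1KO-Air. It was 3.38-fold lower (log2 -1.76 ± 0.22, limma adjusted p = 0.00465) and was called in every fit that left out 1 air array. Rbm45, an RNA-binding protein, had 10.75, 10.03 and 10.26 in WT-Air and 8.56, 8.68 and 8.79 in Nfkb1KO-Air, 3.18-fold lower (limma adjusted p = 0.000773).

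Atp10d, a phospholipid flippase subunit, was 2.77-fold lower (10.50, 10.19 and 10.89 in WT-Air and 8.54, 9.39 and 9.24 in Nfkb1KO-Air). Dclk1, a microtubule-associated kinase, was 2.67-fold lower, and its 8 probe sets went the same way. Bex1 had 9.98, 10.13 and 10.17 in WT-Air and 8.82, 9.03 and 8.85 in Nfkb1KO-Air, 2.29-fold lower with little spread in either group. The calcitonin gene-related peptide gene Calcb (2.23-fold), Sptssb, a subunit of the enzyme that starts sphingolipid synthesis (2.33-fold), the plasminogen-binding lectin Clec3b (1.85-fold) and the pseudouridine synthase Pus7 (1.82-fold) were lower too. So were Gm13889 (1.80-fold), the scaffold gene Mpp6 (1.79-fold), the methylglyoxal-detoxifying Glo1 (1.73-fold), Cgnl1 (1.42-fold), the flavin monooxygenase Fmo1 (1.37-fold) and the farnesyltransferase subunit Fnta (1.33-fold).

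Some large negative differences were not called. Jchain, the immunoglobulin joining chain, gave 11.22, 8.79 and 12.90 in WT-Air and 7.82, 8.11 and 5.86 in Nfkb1KO-Air (-3.70 ± 0.84, adjusted p = 0.108). Cxcl13, the chemokine that draws B cells, gave 10.08, 7.98 and 11.12 in WT-Air and 6.20, 7.30 and 6.51 in Nfkb1KO-Air (-3.05 ± 0.62, adjusted p = 0.0663). In both, WT-Air replicate 3 was the highest and replicate 2 the lowest of the WT lungs. Summed B cell markers had this order too, at 4445, 3217 and 8526 in WT-Air replicates 1, 2 and 3. So had T cell, thymic, skeletal muscle and adipose markers, the plasma cell list, which holds Jchain, and some other lists. Cardiac markers had another order. What part any of these cells or tissues has in the Jchain and Cxcl13 values was not tested. Skeletal muscle markers had a median of -2.27, and -0.75 without WT-Air replicate 3, with 0 of 12 called by limma in either fit and 2 with an unadjusted p under 0.05 over all arrays.

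Further called genes of other function were Slc23a1, a vitamin C transporter (3.04-fold higher), Gsto1, a glutathione transferase (2.27-fold), Ms4a8a (2.17-fold), Ms4a6d (1.96-fold), Fgl2 (1.77-fold), Tmem243 (1.73-fold), Tlcd4 (1.68-fold), Tnfaip8 (1.64-fold), Klhl7 (1.62-fold) and Abhd14b (1.61-fold). Gsto1 was among the brightest called genes, with 13.03, 12.30 and 12.60 in WT-Air and 13.90, 13.69 and 13.88 in Nfkb1KO-Air. The probe sets of Fgl2, Tmem243, Tlcd4 and Tnfaip8 disagreed in direction, as did those of Cgnl1 and Xaf1. Outside the rule for naming, and named after their values were seen, the last 4 called genes were the tight junction gene Cldn2 (3.70-fold higher), Ly6i (2.53-fold), Tmem38b (1.44-fold) and 2610037D02Rik, which was dim in all 3 WT-Air arrays and at least 3.38-fold higher. Cldn2, Ly6i and Tmem38b were still called in 10, 4 and 10 of 21 alternative analyses, and 2610037D02Rik in 6 of 20.

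Genes near the targeted locus were counted apart. Within 20 Mb of Nfkb1, 2 of 194 genes tested were called (1.03%), Gbp3 at 7.0 Mb and Tlcd4 at 14.4 Mb, both higher. Elsewhere on the chromosome 4 of 682 were called (0.587%), and 54 of 16646 on other chromosomes (0.324%). None of the 12 called genes of the type I interferon group is on that chromosome. Strain differences at other places in the genome were not tested.

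All 60 called genes had a difference of the same sign between Nfkb1KO-O3 and WT-O3, in the 6 mice of the other exposure. The share of all genes with the same sign was not counted here. In some of the 60 the difference after O3 was near 0, so the count of signs is not read as replication. The test of air against O3 (interaction) called 6 of all genes (0.0342%) and 0 of these 60, while 21 of the 60 had an unadjusted p under 0.05. The share of all genes with an unadjusted interaction p under 0.05 was not counted here, so counts at that threshold have no background to be read against. In the type I interferon group the median was 0.72 in air and 0.70 after O3. Oas1a (1.95 ± 0.14 in air and 1.79 ± 0.14 after O3), Ifit1 (1.28 ± 0.18 and 1.30 ± 0.18) and Usp18 (1.02 ± 0.12 and 1.03 ± 0.12) had close values in both exposures, with interaction p-values in limma of 0.441, 0.958 and 0.958 before adjustment. In 3 of the 12 called genes of the group the unadjusted p was under 0.05, with the larger difference in air. The 12 were chosen by p in air, which favours a larger difference there, so nothing is read from this direction. Oas3 was 3.62 ± 0.59 in air and 1.34 ± 0.59 after O3 (limma unadjusted p = 0.0169), Oasl1 1.36 and 0.52 (0.0254) and Ifit3 1.11 and 0.57 (0.0377).

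Guanylate-binding proteins and immunity-related GTPases had a median of 0.78 in air and 2.32 after O3. All 10 had the larger difference after O3 at an unadjusted p under 0.05, a share not counted for all genes. Of the 10, 5 also passed limma's adjustment, against 0.0342% of all genes. Gbp3 was 1.15 ± 0.20 in air and 2.92 ± 0.20 after O3. The granzymes Gzma (1.45 ± 0.22 and 2.88 ± 0.22) and Gzmb (1.36 ± 0.21 and 2.68 ± 0.21) were also further apart after O3, at unadjusted p-values of 0.000494 and 0.00074 in limma.

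Of the called genes, 33 of 45 higher and 15 of 15 lower had the larger difference in air, the contrast in which they were chosen, so that nothing is read from this. Among those with the smallest difference after O3, Muc4 differed by 0.92 ± 0.14 in air and 0.01 ± 0.14 after O3 (unadjusted p = 0.000516), Lrg1 by 1.17 ± 0.20 and 0.14 ± 0.20 (0.0035), Calcb by -1.16 ± 0.18 and -0.11 ± 0.18 (0.00121) and Gm13889 by -0.85 ± 0.14 and -0.02 ± 0.14 (0.00138). None of these interactions passed limma's adjustment over all genes. The mucosal list had a median of 1.14 in air and 0.28 after O3. Rbm45 differed in both exposures, by -1.67 ± 0.16 and -1.65 ± 0.16.

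**Figure D5:**
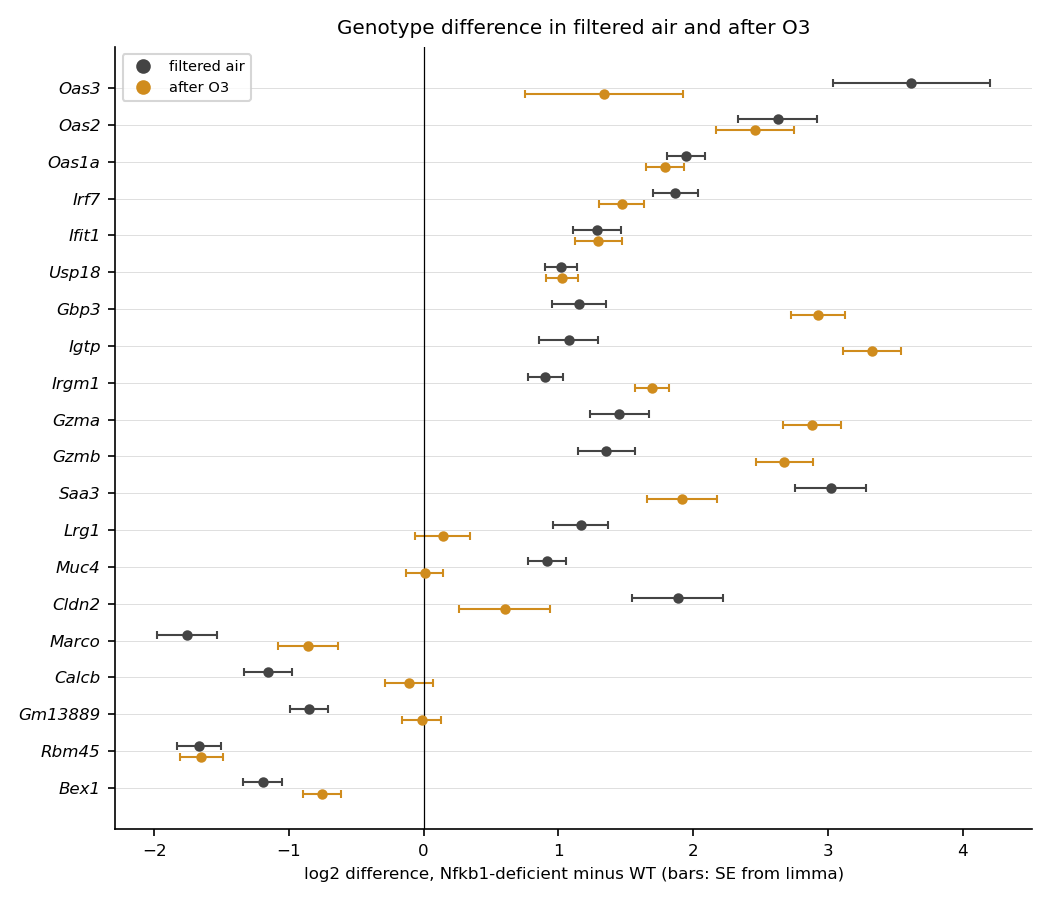
Genotype difference (log2, Nfkb1-deficient minus WT, x axis) with its limma SE for 20 genes, in filtered air (dark points) and after O3 (orange points), 3 arrays per group. Oas1a, Ifit1, Usp18 and Rbm45 have overlapping bars, Gbp3, Igtp and the granzymes lie further right after O3, and Lrg1, Muc4, Calcb and Gm13889 lie near 0 after O3.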

How the data were processed

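Lung RNA was measured on 12 Affymetrix Mouse Genome 430 2.0 arrays of 1 colour, for 3 mice per group. The deposited values are intensity signals on a linear scale, which the submitters' processing notes credit to MAS5 in Affymetrix Expression Console (versions not given in the sources used here), and the trimmed mean of each array was 500.0. Of 45101 probe sets, 64 controls were set aside, 34958 had 1 gene symbol, 932 had several and 9211 had none in the array annotation, which can be old.

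Signals under 1 were set to 1, taken as log2 and quantile normalised over the 12 arrays. Probe sets above the 20th percentile in at least 1 array were kept, and a gene was represented by its probe set with the highest mean signal. Genes were fitted with limma 3.58.1 (R 4.3.3) over the 4 groups, with a mean-dependent trend, and p-values were adjusted over all 17569 genes. The number of arrays limits the precision, and an exact test of 3 against 3 cannot go below p = 0.1. The script was tested on simulated data.

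Members and gene lists were chosen with earlier results of these data known. Genes named are called members of a list, up to 15 further called genes in each direction with the largest difference, non-overlapping groups and a group mean above the median, the 4 genes of smallest p in every list, and all measured members of the NF-κB, type I interferon signalling, ligand and study-named lists. Genes outside this rule are said to be so. Promoter windows were taken from a RefSeq table of GRCm38.p6.

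Alternatives varied the scaling, floor, filter, probe sets, arrays in the fit, variance model, replicate block and test, including the methods' t-test, and left out arrays. Same-numbered arrays of the 2 genotypes did not deviate together (correlations of -0.061 to -0.036), so the numbers were not taken to pair mice. Scan dates and batches were not analysed here.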

Additional observations from a re-analysis of the deposited data

Results flagged for a closer look

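In 6 genes the genotype difference in air differed from that after O3 by limma's interaction test at an adjusted p under 0.05, and in all 6 it was larger after O3. None of the 6 was called in air. Ifi47, Gbp2, Gbp6, Gbp7 and Igtp encode interferon-inducible GTPases, and Cd274 encodes the checkpoint ligand PD-L1. Ifi47, Gbp2, Gbp6 and Gbp7 are named here for this test, after their values were seen.

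For Ifi47 the difference was 0.48 in air and 2.21 after O3, so that air minus O3 was -1.73 ± 0.18 (limma adjusted p = 0.00703). For Gbp2 the values were 0.09 and 1.87, with -1.78 ± 0.21 between them. Gbp7 went from 0.45 to 2.09 (-1.65 ± 0.22) and Gbp6 from 0.69 to 3.41 (-2.72 ± 0.38). Igtp differed by 1.08 in air and 3.33 after O3 (-2.25 ± 0.30, limma adjusted p = 0.0287). Cd274 differed by 0.56 and 2.98 (-2.42 ± 0.35, limma adjusted p = 0.0365).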

How the results depend on the processing

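All 60 called genes kept their direction in each of the 21 other analyses that tested them, but the number called moved. Since the groups of these genes did not overlap, leaving out or weighting air arrays could not turn a sign. Changes of filter, variance model or test reused the same differences, so nothing is read from the kept direction in such fits. With arrays centred on their medians 9 were called, 6 higher and 3 lower, with 3 of the type I interferon group. Without a trend in the spread 13 were called (9 and 4, with 3 of the group), after averaging the probe sets of a gene 38 (28 higher), and in the 6 air arrays alone 30 (25 and 5). The methods' t-test gave 1182 at an unadjusted p under 0.05 (596 and 586, with 25 of the group) and 0 in each direction and in the group after Benjamini-Hochberg. Leaving out 1 air array gave 15 to 93 calls, 10 to 74 higher, 5 to 25 lower and 3 to 9 of the group. Without WT-Air replicate 3 and Nfkb1KO-Air replicate 1 together, 30 were called (22 and 8, with 7 of the group). The replicate block gave 45 calls, 32 higher and 13 lower, with 10 of the group.

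The sign turned for Gbp2 when arrays were centred on their medians (-0.19) and for Tnfaip3 when its probe sets were averaged (-0.39). When single air arrays were left out, values ran from -0.041 to 0.21 for Gbp2, from -0.11 to 0.025 for Rela (above 0 without WT-Air replicate 2 or Nfkb1KO-Air replicate 2 or 3) and from -1.23 to 0.021 for Ifnb1, and none of these genes was called. The cause of these moves was not tested. With 3 mice per group, and signals of dim genes near background, a difference that was not called may still exist.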
